A study of Saccharomyces cerevisiae with 8 samples.

Results

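Saccharomyces cerevisiae stores glucose as glycogen, and 10 of the 6034 genes quantified here make the glucose donor, build the polymer or take it apart. They are a fixed list of symbols with no threshold on measured values: UGP1, PGM2 and PGM1 (donor supply), GLG1 and GLG2 (priming), GSY1 and GSY2 (chain extension), GLC3 (branching), and GPH1 and GDB1 (breakdown). All 10 passed the filter on low counts, which left 5734 genes to be tested. Polyadenylated RNA was sequenced from 4 groups of 2 libraries. All groups carried the strain label W303a and grew at 30 °C in YPD (rich medium) with 2% dextrose to an optical density at 600 nm of 0.2 to 0.4. The first group was held at 39 °C for 5 min (heat shock) and depleted of Ifh1 with 5ph-IAA, and the second was held at 39 °C for 5 min without 5ph-IAA. The third stayed at 30 °C with 5ph-IAA, and the fourth stayed at 30 °C without it. Ifh1 helps to switch on ribosomal protein genes. Per the labels' protocols, its depletion took 30 min of joint treatment with 1 µM β-estradiol and 5 µM 5ph-IAA, an auxin analogue used to trigger degradation of a tagged protein, and "with 5ph-IAA" below stands for that joint treatment.

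Some limits of the groups come from the labels. The series' design line instead speaks of anchor away, in which a nuclear protein is tethered elsewhere in the cell. No label states which tag or degron alleles the cells carried, whether the untreated groups came from the same tagged cells, or whether they received solvent or β-estradiol. The replicates are numbered as biological replicates, but no source says whether each was its own culture. P-values here reflect how far these libraries differ, which may be technical.

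As background, glucose-6-phosphate is turned into glucose-1-phosphate by phosphoglucomutase, and UDP-glucose pyrophosphorylase turns that into UDP-glucose. Glycogenin attaches the first glucose units to itself, glycogen synthase extends the chain and the branching enzyme adds side chains. Glycogen phosphorylase and the debranching enzyme release glucose again. In budding yeast glycogen accumulates as cells run short of nutrients or meet stress, and many genes of its metabolism are known targets of the stress-responsive factors Msn2 and Msn4, which bind the sequence AGGGG.

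The libraries held 7717767 to 21025464 estimated counts, and the deepest pair was 39 °C without 5ph-IAA. The mRNA of IFH1 itself was at 13.7 and 14.3 TPM (a relative transcript level corrected for gene length) at 39 °C with 5ph-IAA, and at 9.06 and 10.1 TPM at 39 °C without it. At 30 °C it was at 24.0 and 26.6 TPM with 5ph-IAA and at 22.6 and 24.1 TPM without. The depletion acts on the protein, so this mRNA does not check the labels. The 137 ribosomal protein genes took 10.3% of all TPM at 39 °C with 5ph-IAA, 19.3% to 19.8% at 39 °C without it, 17.1% to 17.3% at 30 °C with it and 39.7% to 40.6% at 30 °C without it. TPM of every other gene is relative to that share, and no spike-in is stated. Of the 6 a-cell markers for the labelled mating type, MFA1 and MFA2 were at 0 and the others summed to 227.2 to 1099 TPM over the 8 libraries, against 25.8 to 53.53 TPM for 4 alpha-cell markers. The summed level of 8 meiosis and sporulation genes was 92.2 to 99.8 TPM at 39 °C with 5ph-IAA, 86.6 to 87.8 TPM at 39 °C without it, 66.9 to 68.2 TPM at 30 °C with it and 40.7 to 42.4 TPM at 30 °C without it. That list moved with the same groups as the glycogen genes, and its part in the results was not tested. It includes SGA1, itself a gene of glycogen breakdown, with means of 17, 15.6, 4.03 and 2 TPM in the same order. In TPM, 85.3% of all 6034 genes were also higher in both libraries with 5ph-IAA than without at 30 °C, and 69.7% at 39 °C. With heat, 31.5% were higher with 5ph-IAA and 50.7% without it. In bulk RNA, fewer cells with a transcript and less of it per cell cannot be told apart.

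After 5 min at 39 °C the 10 genes together were far more abundant than at 30 °C. They summed to 5256 ± 40.9 TPM at 39 °C with 5ph-IAA and to 4096 ± 46.6 TPM at 39 °C without it (SD, n = 2 in each group). At 30 °C they summed to 694.9 ± 0.457 TPM with 5ph-IAA and to 256.1 ± 11.5 TPM without it. In shares of all TPM these are 0.526%, 0.41%, 0.0695% and 0.0256%, in the same order. The spread between libraries of a group was small beside the gaps between groups.

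**Figure D1:**
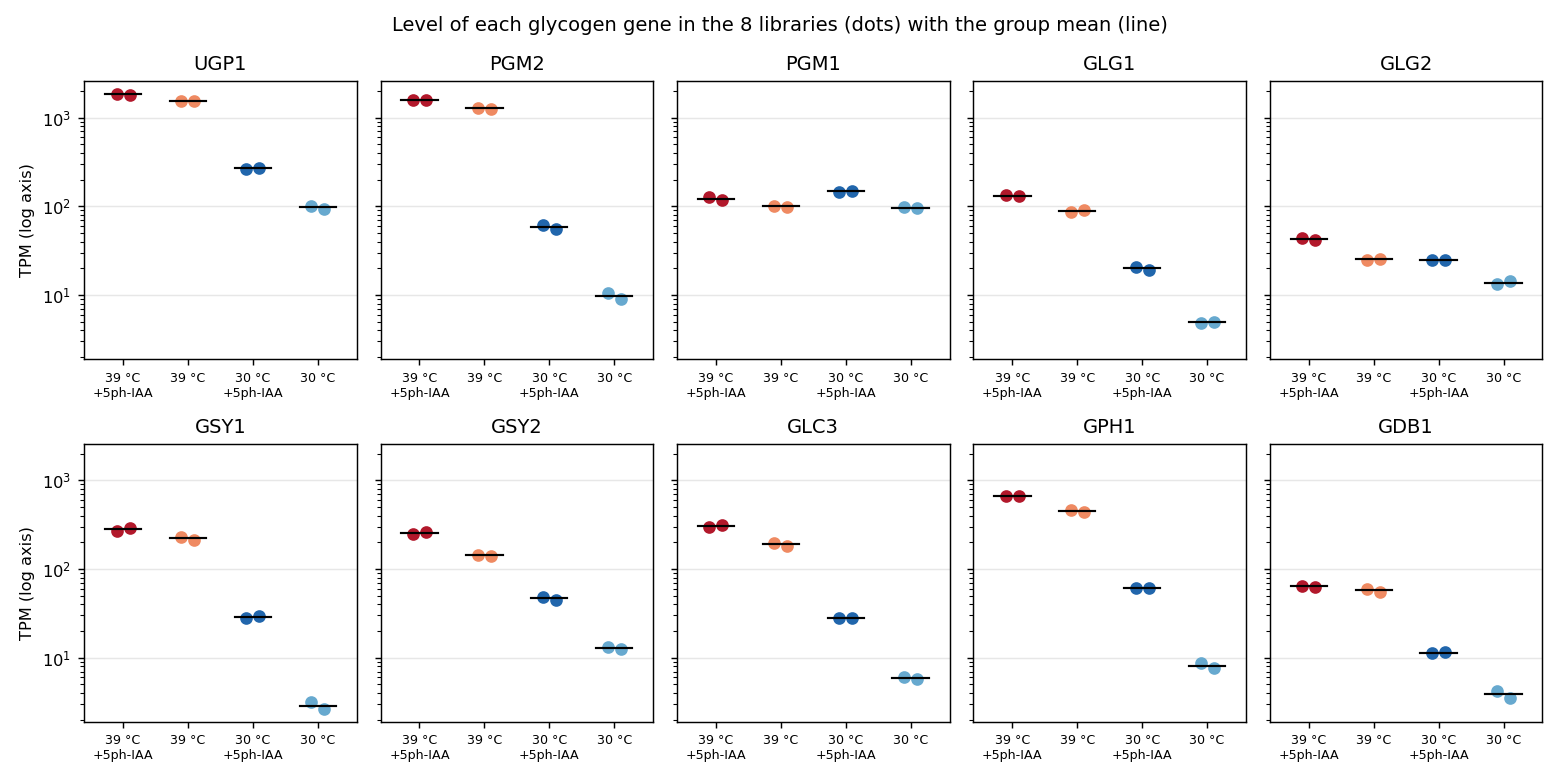
Each panel shows 1 gene, with TPM on a log axis for the 2 libraries of each group (dots) and their mean (line), in the group order 39 °C with 5ph-IAA, 39 °C without, 30 °C with and 30 °C without. Of the 10 genes, 9 step down in that order or nearly so, while PGM1 stays between 94.9 and 148 TPM in all 8 libraries.

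UGP1, the single UDP-glucose pyrophosphorylase gene (YKL035W, chrXI:369891-371390, plus strand), had the highest mean level of the 10 in every group, although it overlapped PGM1 at 30 °C without 5ph-IAA. Its libraries held 1857 and 1786 TPM at 39 °C with 5ph-IAA, 1552 and 1553 TPM at 39 °C without it, 264.7 and 273 TPM at 30 °C with it, and 102 and 92.7 TPM at 30 °C without it. No groups overlapped. With heat UGP1 rose by 2.98 ± 0.05 on the log2 scale with 5ph-IAA and by 3.87 ± 0.05 without it. Each change given this way is a log2 fold change ± its standard error from edgeR's quasi-likelihood fit with TMM scaling over all genes tested, called at a Benjamini-Hochberg adjusted p under 0.05. The adjusted p of UGP1 was 3.74e-15 with 5ph-IAA and 3.19e-16 without. In the comparisons of 5ph-IAA against none, UGP1 had −0.06 ± 0.04 at 39 °C (edgeR, adjusted p = 0.279) and rose by 0.82 ± 0.05 at 30 °C (edgeR, adjusted p = 1.3e-08).

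PGM2 and PGM1 encode the phosphoglucomutases, and PGM2 is known as the major isoform. PGM2 (YMR105C, chrXIII:475897-477606, minus strand) held 1584 and 1573 TPM at 39 °C with 5ph-IAA, 1270.3 and 1259.9 TPM at 39 °C without it, 61.1 and 55.2 TPM at 30 °C with it, and 10.6 and 9.0 TPM at 30 °C without it. Its 4 groups lay apart, and its heat change without 5ph-IAA was the largest among the 10 genes. PGM2 rose with heat by 4.99 ± 0.05 with 5ph-IAA and by 6.88 ± 0.06 without it, and the second was the 13th largest increase of the 5734 genes. Its edgeR adjusted p was 1e-16 with 5ph-IAA and 1.45e-17 without. Set against no 5ph-IAA, cells with it had 0.03 ± 0.04 for PGM2 at 39 °C (edgeR, adjusted p = 0.667), and PGM2 rose by 1.92 ± 0.07 at 30 °C (edgeR, adjusted p = 5.32e-11).

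PGM1 (YKL127W, chrXI:203541-205253, plus strand) behaved unlike PGM2. It held 128 and 117 TPM at 39 °C with 5ph-IAA, 101 and 98.5 TPM at 39 °C without it, 145.7 and 148 TPM at 30 °C with it, and 97.9 and 94.9 TPM at 30 °C without it. The highest libraries were those at 30 °C with 5ph-IAA, and no groups overlapped in TPM, although those without 5ph-IAA nearly met. In the fit PGM1 had −0.04 ± 0.06 with heat with 5ph-IAA and −0.08 ± 0.05 without it (edgeR, adjusted p = 0.561 and 0.187). For 5ph-IAA against none it had 0.00 ± 0.05 at 39 °C and −0.04 ± 0.06 at 30 °C (edgeR, adjusted p = 0.97 and 0.57). None of these was called. Its value at 30 °C depends on the scaling between libraries, as given further on. Its heat calls do too. With library totals PGM1 was called lower with heat, with −0.37 with 5ph-IAA and −0.16 without it (edgeR, adjusted p = 2.82e-05 and 0.0136). In the same scaling 3156 and 2444 of all 5734 genes were called lower. Without 5ph-IAA PGM1 was also called lower with heat in DESeq2 (−0.14, adjusted p = 0.0478).

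GLG1 and GLG2 encode glycogenin, the self-glucosylating primer of the polymer. GLG1 (YKR058W, chrXI:552770-554620, plus strand) held 133 and 131 TPM at 39 °C with 5ph-IAA, 87.0 and 91.4 TPM at 39 °C without it, 20.8 and 19.3 TPM at 30 °C with it, and 4.86 and 4.99 TPM at 30 °C without it. Its groups lay apart. GLG1 rose with heat by 2.94 ± 0.06 with 5ph-IAA and by 4.05 ± 0.08 without it (edgeR, adjusted p = 6.13e-14 and 7.03e-15). It rose with 5ph-IAA by 0.27 ± 0.05 at 39 °C and by 1.37 ± 0.10 at 30 °C (edgeR, adjusted p = 0.000752 and 5.64e-08).

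GLG2 (YJL137C, chrX:154985-156127, minus strand) moved less. It held 43.7 and 41.7 TPM at 39 °C with 5ph-IAA, 25.1 and 25.6 TPM at 39 °C without it, 24.9 and 25.0 TPM at 30 °C with it, and 13.2 and 14.4 TPM at 30 °C without it. The libraries at 39 °C without 5ph-IAA and those at 30 °C with it were nearly level. GLG2 rose with heat by 1.00 ± 0.09 with 5ph-IAA and by 0.74 ± 0.09 without it (edgeR, adjusted p = 1.82e-07 and 4.32e-06). It rose with 5ph-IAA by 0.46 ± 0.08 at 39 °C (edgeR, adjusted p = 0.000391) and had 0.20 ± 0.10 at 30 °C, which was not called (edgeR, adjusted p = 0.103).

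GSY1 and GSY2 encode glycogen synthase, the enzyme that extends the chain, and GSY2 is known as the form that dominates in stationary cells. GSY1 (YFR015C, chrVI:174265-176391, minus strand) held 270.2 and 287 TPM at 39 °C with 5ph-IAA, 229 and 213 TPM at 39 °C without it, 27.8 and 29.5 TPM at 30 °C with it, and 3.15 and 2.64 TPM at 30 °C without it. It was the least abundant of the 10 genes at 30 °C without 5ph-IAA and was exceeded by 3 of them at 39 °C without it. GSY1 rose with heat by 3.50 ± 0.06 with 5ph-IAA and by 6.13 ± 0.08 without it (edgeR, adjusted p = 5.4e-15 and 2.5e-16). For 5ph-IAA against none it had 0.04 ± 0.05 at 39 °C (edgeR, adjusted p = 0.544) and rose by 2.66 ± 0.10 at 30 °C (edgeR, adjusted p = 4.44e-11), the 19th largest increase of the 5734 genes.

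GSY2 (YLR258W, chrXII:660716-662833, plus strand) held 246 and 258 TPM at 39 °C with 5ph-IAA, 144.6 and 141 TPM at 39 °C without it, 49.0 and 44.7 TPM at 30 °C with it, and 13.4 and 12.5 TPM at 30 °C without it. Its groups lay apart, and the step between the 39 °C groups was larger than that of GSY1. GSY2 rose with heat by 2.66 ± 0.05 with 5ph-IAA and by 3.33 ± 0.06 without it (edgeR, adjusted p = 1.82e-14 and 2.8e-15). GSY2 rose with 5ph-IAA by 0.53 ± 0.04 at 39 °C, the largest of the 10 genes there, and by 1.21 ± 0.06 at 30 °C (edgeR, adjusted p = 5.15e-07 and 2.23e-09).

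GLC3, the branching enzyme (YEL011W, chrV:133120-135234, plus strand), held 299 and 312 TPM at 39 °C with 5ph-IAA, 196 and 182 TPM at 39 °C without it, 27.9 TPM in both libraries at 30 °C with it, and 6.12 and 5.74 TPM at 30 °C without it. Its groups lay apart. GLC3 rose with heat by 3.68 ± 0.05 with 5ph-IAA and by 4.86 ± 0.06 without it (edgeR, adjusted p = 9.56e-16 and 2.33e-16). GLC3 rose with 5ph-IAA by 0.40 ± 0.04 at 39 °C and by 1.59 ± 0.07 at 30 °C (edgeR, adjusted p = 4.89e-06 and 6.98e-10).

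Both breakdown genes rose with heat, and with 5ph-IAA at 30 °C. GPH1, glycogen phosphorylase (YPR160W, chrXVI:861306-864014, plus strand), held 660.3 and 658 TPM at 39 °C with 5ph-IAA, 464 and 443 TPM at 39 °C without it, 61.4 and 60.6 TPM at 30 °C with it, and 8.73 and 7.61 TPM at 30 °C without it. It ranked behind UGP1 and PGM2 at 39 °C, and at 30 °C without 5ph-IAA 5 of the 10 genes were above it. GPH1 rose with heat by 3.66 ± 0.05 with 5ph-IAA and by 5.67 ± 0.06 without it (edgeR, adjusted p = 3.31e-16 and 2.11e-17). GPH1 rose with 5ph-IAA by 0.25 ± 0.04 at 39 °C and by 2.25 ± 0.06 at 30 °C (edgeR, adjusted p = 0.000232 and 1.44e-12).

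GDB1, the debranching enzyme (YPR184W, chrXVI:902044-906654, plus strand), held 63.9 and 63.4 TPM at 39 °C with 5ph-IAA, 59.5 and 55.2 TPM at 39 °C without it, 11.3 and 11.5 TPM at 30 °C with it, and 4.21 and 3.55 TPM at 30 °C without it. GDB1 rose with heat by 2.70 ± 0.06 with 5ph-IAA and by 3.76 ± 0.07 without it (edgeR, adjusted p = 6.99e-14 and 3.29e-15). With 5ph-IAA GDB1 rose by 0.91 ± 0.08 at 30 °C (edgeR, adjusted p = 3.74e-07). At 39 °C it had −0.14 ± 0.05 (edgeR, adjusted p = 0.0322), a call that was lost in DESeq2 (−0.10, adjusted p = 0.247). The call was also lost without either library of 39 °C with 5ph-IAA (−0.16 without replicate 1 and −0.12 without replicate 2) and without replicate 1 of 39 °C without it (−0.11).

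Summed over steps, the 5 genes that build the polymer held 1011 ± 26.8 TPM at 39 °C with 5ph-IAA, 667.5 ± 20.4 TPM at 39 °C without it, 148.4 ± 2.78 TPM at 30 °C with it and 40.5 ± 0.358 TPM at 30 °C without it (SD, n = 2 in each group). The 2 breakdown genes held 722.8 ± 1.94 TPM, 511.1 ± 17.7 TPM, 72.37 ± 0.459 TPM and 12.05 ± 1.26 TPM in the same order. The 5 building genes together were ahead of the 2 breakdown genes in every library, but these sums cover unequal numbers of genes. By group means, GPH1 alone exceeded each building gene after heat. With 5ph-IAA it held 659.2 TPM, and the highest building gene, GLC3, held 305.7 TPM. Without 5ph-IAA GPH1 held 453.8 TPM, and the highest building gene, GSY1, held 221.4 TPM. GDB1 exceeded only GLG2 in these heated groups. In unheated cells without 5ph-IAA, GLG2 and GSY2 were above GPH1.

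The order of levels changed between temperatures. At 39 °C with 5ph-IAA the descending order was UGP1, PGM2, GPH1, GLC3, GSY1, GSY2, GLG1, PGM1, GDB1 and GLG2, and no neighbours in that order overlapped. At 39 °C without 5ph-IAA it was UGP1, PGM2, GPH1, GSY1, GLC3, GSY2, PGM1, GLG1, GDB1 and GLG2, again with no overlap. At 30 °C with 5ph-IAA it was UGP1, PGM1, GPH1, PGM2, GSY2, GSY1, GLC3, GLG2, GLG1 and GDB1, where GPH1 overlapped PGM2 and GSY1 overlapped GLC3. At 30 °C without 5ph-IAA it was UGP1, PGM1, GLG2, GSY2, PGM2, GPH1, GLC3, GLG1, GDB1 and GSY1, where UGP1 overlapped PGM1 and GLG2 overlapped GSY2.

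Heat shock with 5ph-IAA raised 9 of the 10 genes and lowered none, PGM1 being the exception, with a median log2 change of 2.96 against 0.01 over all 5734 genes. Of all genes tested, 76.2% were called in that comparison, 38.0% as higher and 38.3% as lower, and 14.4% were called at least 2-fold higher. Heat shock without 5ph-IAA also raised 9 and lowered none, with a median of 3.96 against 0.04, where 82.2% of all genes were called, 42.5% as higher, 39.7% as lower and 19.0% at least 2-fold higher. Both heat comparisons called most genes, so the count of members by itself says little. The smallest called heat change among the 10 was that of GLG2 in both comparisons.

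**Figure D2:**
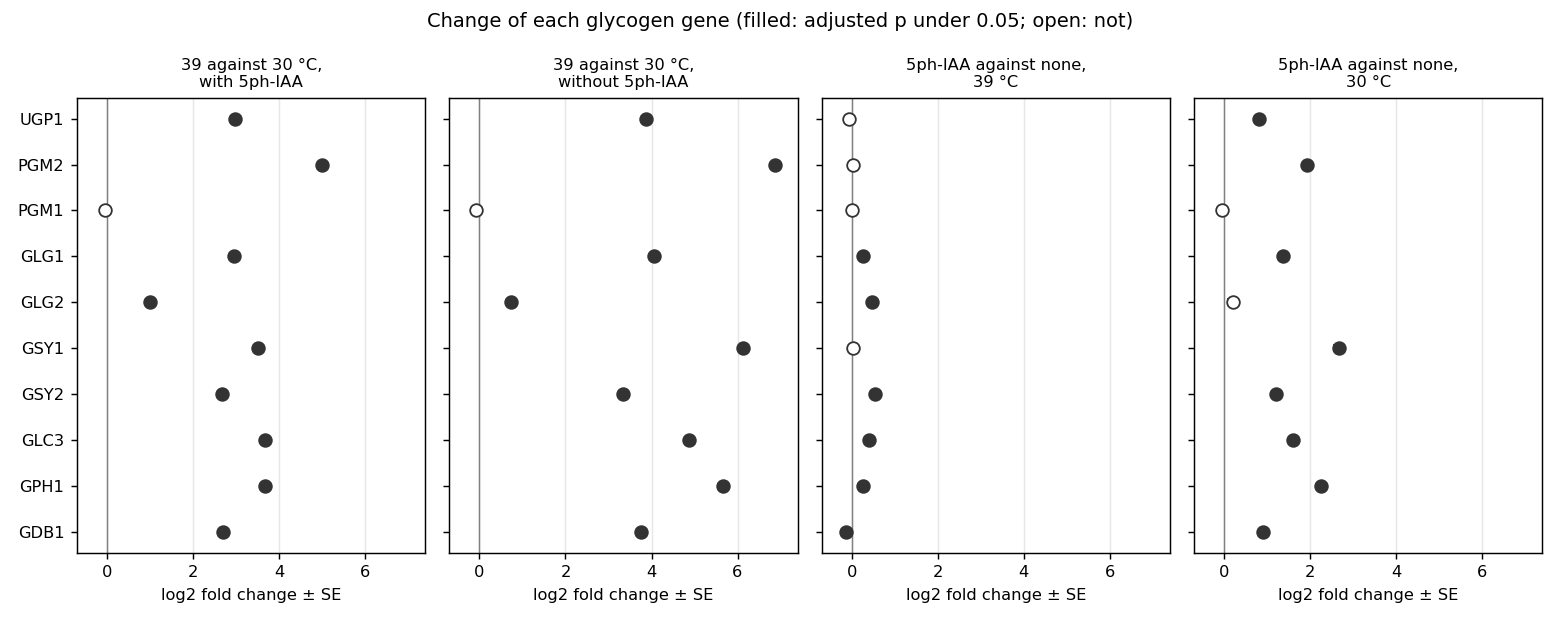
Log2 fold change ± SE (edgeR, most SE bars are smaller than the symbols) of the 10 genes in 4 comparisons, filled where called and open where not. PGM1 sits near 0 in all 4 panels (−0.08 to 0.00), PGM2 reaches 6.88 with heat without 5ph-IAA, and the panel for 5ph-IAA at 39 °C spans only −0.14 to 0.53.

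The change with 5ph-IAA was larger at 30 °C than at 39 °C for most of the genes. At 39 °C, 5 of the 10 genes rose (GSY2, GLG2, GLC3, GLG1 and GPH1), GDB1 fell and 4 were not called, with a median of 0.14 against −0.00 over all genes, where 44.5% of all genes were called, 22.5% as higher and 22.0% as lower. At 30 °C, 8 of the 10 rose and none fell, with a median of 1.29 against −0.02 over all genes, where 51.7% of all genes were called, 23.6% as higher and 28.1% as lower. Only 2.48% of all genes were called at least 2-fold higher at 30 °C, and 6 of the 10 were (GSY1, GPH1, PGM2, GLC3, GLG1 and GSY2). No member was 2-fold higher at 39 °C, where 2.42% of all genes were.

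The heat change with 5ph-IAA minus the heat change without it, an interaction term in the same fit, was called below 0 for 8 of the 10 genes and above 0 for none, where 48.9% of all genes were called, 26.0% as higher and 22.9% as lower. Its median was −1.08 for the 10 genes and −0.00 for all genes. GSY1 had −2.62 ± 0.11, GPH1 had −2.01 ± 0.07 and PGM2 had −1.89 ± 0.08 (edgeR, adjusted p = 1.15e-09, 2.8e-10 and 1.54e-09). GLC3, GLG1, GDB1, UGP1 and GSY2 lay between −1.19 and −0.68. GLG2 had 0.25 ± 0.13 and PGM1 had 0.04 ± 0.08, and neither was called (edgeR, adjusted p = 0.119 and 0.676). The interaction shares its 4 groups with the simple comparisons, so a high level at 30 °C with 5ph-IAA enters both.

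In TPM, all 10 genes were higher in both libraries at 39 °C with 5ph-IAA than in both at 39 °C without it, and so were 69.7% of the 6034 genes. At 30 °C all 10 were likewise higher with 5ph-IAA than without, as were 85.3% of the 6034 genes. With heat, 9 of the 10 were higher in TPM with 5ph-IAA (PGM1 was lower), against 31.5% of the 6034 genes, and all 10 were higher without it, against 50.7%. TPM and the fit thus place the zero differently. The median of all genes for 5ph-IAA against none at 39 °C was −0.00 with TMM, 0.14 with scaling by library totals and 0.28 from log2(TPM + 1). At 30 °C it was −0.02, 0.38 and 0.61. PGM1, at −0.04 in the main scaling at 30 °C, was at 0.36 with library totals and at 0.60 on the log2(TPM + 1) scale, and its direction flips. Relative to the median of all genes it lay between −0.03 and −0.01 under all 6 scalings tried. GSY1 lay between 2.32 and 2.68 above the median at 30 °C, and GSY2 between 0.53 and 0.54 above it at 39 °C. UGP1 lay between −0.06 and −0.05 and GDB1 between −0.14 and −0.13 at 39 °C, and both change sign without the subtraction. With library totals all 10 genes were called higher at 30 °C, as were 3962 of all 5734 genes, and 8 of the 10 at 39 °C, as were 2315 of all genes.

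**Figure D3:**
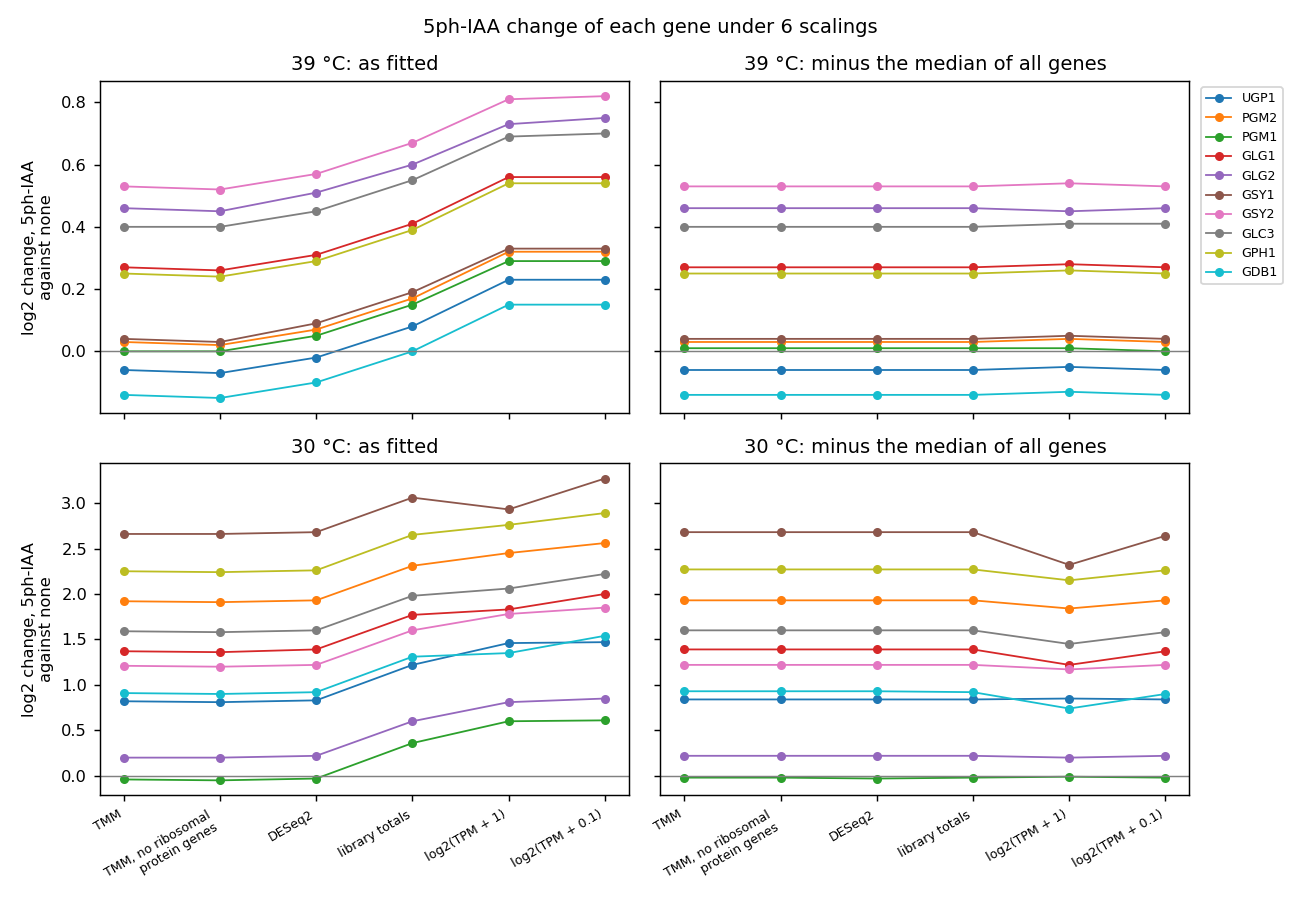
Log2 change with 5ph-IAA against none at 39 °C (top) and 30 °C (bottom) under 6 scalings, as fitted (left) and after subtracting the median of all genes (right), 1 line per gene. The lines climb together on the left where the median of all genes moves, and on the right GSY2 at 39 °C keeps to 0.53 to 0.54.

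Within each pair of paralogs the balance shifted between groups, and a ratio within a library does not depend on the scaling between libraries. All 80 estimated counts of the 10 genes (10 genes in 8 libraries, 76 to 59373 counts) were whole numbers within 1e-6, so none of them holds a fractional share of reads divided between genes. The coding sequences of GSY1 and GSY2 are identical at 73.2% of 2113 aligned bases, those of GLG1 and GLG2 at 68.3% of 1124, and those of PGM1 and PGM2 at 72.8% of 1708. No pair shares a run of 31 bases, and the longest shared runs are 20, 14 and 23 bases.

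GSY1 made up 52.4% and 52.7% of the pair's TPM at 39 °C with 5ph-IAA, 61.3% and 60.2% at 39 °C without it, 36.2% and 39.8% at 30 °C with it, and 19.0% and 17.5% at 30 °C without it. It was thus ahead of GSY2 in all 4 libraries at 39 °C and behind it in all 4 at 30 °C. Taken from edgeR's fit, the log2 change of GSY1 minus that of GSY2 was 0.85 ± 0.08 for heat with 5ph-IAA, 2.79 ± 0.10 for heat without it, −0.49 ± 0.07 for 5ph-IAA at 39 °C and 1.46 ± 0.11 for 5ph-IAA at 30 °C. The ± of such differences, here and for the other pairs, combines the standard errors of both genes as if they were independent. The differences themselves were not fitted. The pair as a sum still rose by 3.04 ± 0.05 with heat with 5ph-IAA and by 4.40 ± 0.05 without it (edgeR, adjusted p = 2.02e-15 and 1.39e-16).

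GLG1 made up 75.2% and 75.8% of the glycogenin TPM at 39 °C with 5ph-IAA, 77.6% and 78.1% at 39 °C without it, 45.5% and 43.5% at 30 °C with it, and 26.9% and 25.7% at 30 °C without it. GLG2 thus led at 30 °C and GLG1 at 39 °C. The log2 change of GLG1 minus that of GLG2 was 1.95 ± 0.11 for heat with 5ph-IAA, 3.30 ± 0.12 for heat without it, −0.19 ± 0.09 for 5ph-IAA at 39 °C and 1.17 ± 0.14 for 5ph-IAA at 30 °C.

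PGM1 made up 7.48% and 6.91% of the phosphoglucomutase TPM at 39 °C with 5ph-IAA, 7.37% and 7.25% at 39 °C without it, 70.5% and 72.9% at 30 °C with it, and 90.2% and 91.3% at 30 °C without it. The minor partner at 30 °C, PGM2, was the main one at 39 °C. The log2 change of PGM1 minus that of PGM2 was −5.03 ± 0.08 for heat with 5ph-IAA, −6.96 ± 0.08 for heat without it, −0.02 ± 0.07 for 5ph-IAA at 39 °C and −1.96 ± 0.09 for 5ph-IAA at 30 °C. As a sum the pair held 1700 ± 15.7 TPM at 39 °C with 5ph-IAA, 1365 ± 9.14 TPM at 39 °C without it, 205 ± 2.53 TPM at 30 °C with it and 106.2 ± 3.32 TPM at 30 °C without it (SD, n = 2 in each group). PGM1 held most of the pair at 30 °C, and the sum rose by 0.30 ± 0.04 with 5ph-IAA there (edgeR, adjusted p = 3.85e-05).

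Over the 3 pairs and 4 comparisons, 11 of the 12 differences in the log2 ratio of (TPM + 1) had no overlap between groups, the exception being PGM1 to PGM2 for 5ph-IAA at 39 °C (−0.03). With 2 libraries against 2 the two-sided exact permutation test cannot go below p = 0.333, which each of the 11 reached, and the Benjamini-Hochberg adjusted value over the 12 was 0.364. The design therefore cannot pass the threshold in this test.

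**Figure D4:**
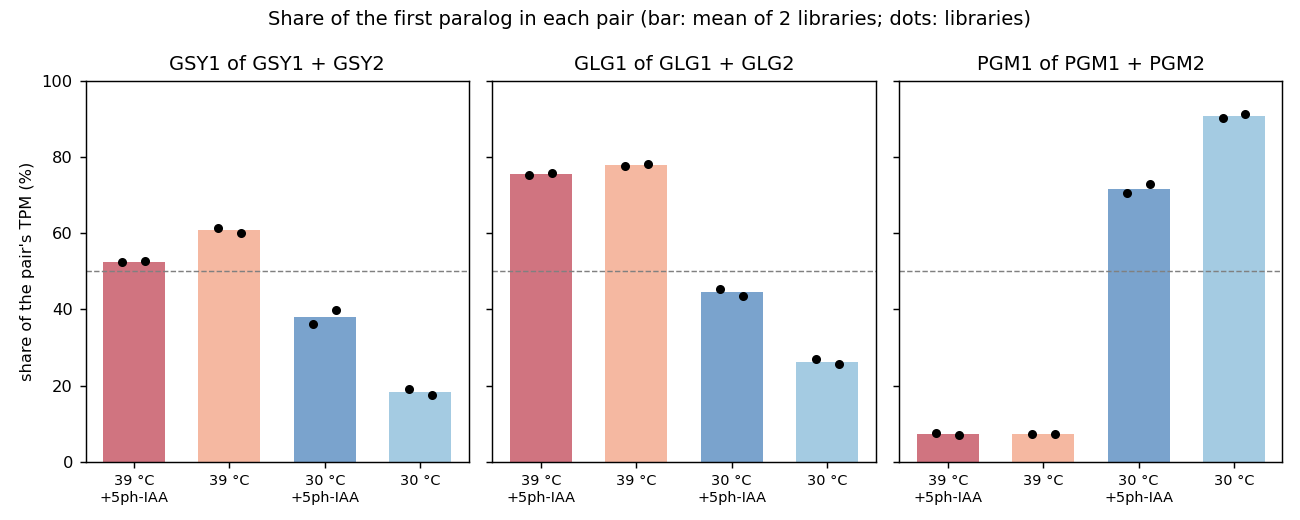
Share of GSY1, GLG1 and PGM1 in the summed TPM of their pair, in percent, as the mean of 2 libraries (bars) and each library (dots), with a dashed line at 50%. GSY1 and GLG1 lie above the line at 39 °C and below it at 30 °C, and PGM1 lies between 6.91% and 7.48% at 39 °C.

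The upstream sequences of the paralogs were searched for AGGGG, the core of the stress response element that Msn2 and Msn4 bind. The stretches below are from the RefSeq R64 reference, read 5′ to 3′ on the coding strand, with AGGGG or its complement CCCCT in capitals. They are shown because PGM2 and PGM1 are the pair with the widest gap in heat change and GSY1 and GSY2 are the synthases. The synthase stretches run from 380 to 181 bases before the coding start (GSY1 at chrVI:176572-176771, minus strand, and GSY2 at chrXII:660336-660535, plus strand). The phosphoglucomutase stretches run from 410 to 211 bases before it (PGM1 at chrXI:203131-203330, plus strand, and PGM2 at chrXIII:477817-478016, minus strand).
GSY1: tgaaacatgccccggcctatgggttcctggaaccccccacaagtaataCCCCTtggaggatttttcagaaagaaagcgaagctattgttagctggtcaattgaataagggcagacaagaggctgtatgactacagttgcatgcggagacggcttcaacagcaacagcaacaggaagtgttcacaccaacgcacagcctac
GSY2: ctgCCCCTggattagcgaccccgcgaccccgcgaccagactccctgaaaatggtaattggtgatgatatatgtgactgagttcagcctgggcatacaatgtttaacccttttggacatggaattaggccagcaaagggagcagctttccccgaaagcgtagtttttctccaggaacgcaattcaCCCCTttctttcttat
PGM1: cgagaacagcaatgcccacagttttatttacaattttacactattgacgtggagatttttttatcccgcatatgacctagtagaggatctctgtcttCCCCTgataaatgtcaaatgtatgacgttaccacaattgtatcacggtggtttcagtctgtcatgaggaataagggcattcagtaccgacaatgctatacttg
PGM2: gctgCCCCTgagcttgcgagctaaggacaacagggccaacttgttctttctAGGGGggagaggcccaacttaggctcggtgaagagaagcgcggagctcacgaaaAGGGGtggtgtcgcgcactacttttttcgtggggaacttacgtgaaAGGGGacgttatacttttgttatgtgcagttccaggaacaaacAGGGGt

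These windows hold 1 match for GSY1, 2 for GSY2, 1 for PGM1 and 5 for PGM2. Such counts depend on the bounds of the windows and do not compare the paralogs. Further matches lie beyond them, 467 bases before the start for GSY1, 494 and 482 for PGM1 and 535 for PGM2. In the 600 bases before the coding start, searched on both strands for AGGGG, PGM2 had 6 matches, UGP1 had 5, GLC3, GPH1 and PGM1 had 3 each, GSY1, GSY2 and GLG2 had 2 each, GDB1 had 1 and GLG1 had 0. Of the 10 genes 9 had at least 1 match, against 39.7% of 5997 genes with the same window. At least 2 matches were found for 8 of the 10, against 10.8% of all genes, and at least 3 for 5 of the 10, against 2.4%. Of the 27 matches 19 lay between annotated genes. Counted there alone, UGP1, PGM1 and GLG2 fell to 1 each and PGM2 to 5, so fewer of the 10 reach these thresholds. The shares of all genes also count matches inside neighbouring genes. Of the 5 upstream of UGP1, 4 lay inside its neighbour AIM26, and 2 of the 3 upstream of PGM1 lay inside a transfer RNA gene. With heat without 5ph-IAA, PGM2, with 6, rose by 6.88, the most of the 10. GLG1, with 0, rose by 4.05 in that comparison, and PGM1, with 3, was not called. Whether the count goes with the heat change was not tested. The heat shock element bound by Hsf1 (TTC, GAA and TTC in turn, or GAA, TTC and GAA, set apart by NN, either strand) was found in none of the 10 windows and in 1.7% of all genes. With so low a share among all genes, the absence of this element from 10 windows says little. A match is a description of the letters, not evidence of binding.

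**Figure D5:**
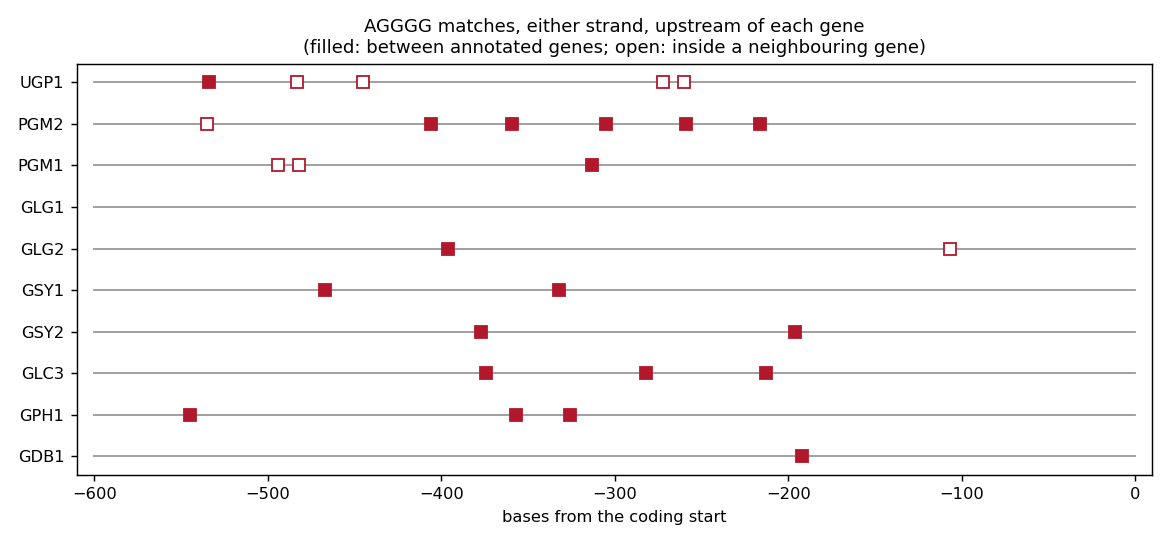
Positions of AGGGG on either strand in the 600 bases before the coding start of each gene (bases from the start on the x axis), filled between annotated genes and open inside a neighbouring gene. PGM2 has 5 filled matches, GLC3 and GPH1 have 3 each, and GLG1 has none.

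Nearly all listed regulators of the glycogen enzymes rose with heat. Of 17 genes in this list, 16 rose with heat with 5ph-IAA (median 0.94) and 16 without it (median 1.03), and none fell, against 38.0% and 42.5% of all genes called higher. In 5ph-IAA against none, 6 rose and 1 fell at 39 °C (median 0.09), and 7 rose and 1 fell at 30 °C (median 0.13), against 22.5% and 23.6% of all genes called higher. These counts follow the scaling. With library totals 8 rose and none fell at 39 °C, where 2315 of all 5734 genes rose. At 30 °C 16 rose and none fell, where 3962 of all genes rose, and 11 rose with heat with 5ph-IAA, where 1409 of all genes rose. The largest changes with heat were those of IGD1, known as an inhibitor of Gdb1, and the regulatory subunits GIP2 and GAC1 of the phosphatase Glc7, which activates glycogen synthase. IGD1 was at 499 ± 22 TPM at 39 °C with 5ph-IAA, 359 ± 7.7 TPM at 39 °C without it, 33.6 ± 3.8 TPM at 30 °C with it and 5.53 ± 0.71 TPM at 30 °C without it (SD, n = 2 in each group). It rose by 4.10 ± 0.08 with heat with 5ph-IAA, by 5.88 ± 0.11 with heat without it and by 1.96 ± 0.17 with 5ph-IAA at 30 °C (edgeR, adjusted p = 2.74e-14, 5.51e-15 and 4.93e-07). GIP2 rose by 4.65 ± 0.08, 5.81 ± 0.10 and 1.25 ± 0.15 in the same comparisons (edgeR, adjusted p = 6.43e-15, 2.03e-15 and 9.83e-06). GAC1 rose with heat by 4.44 ± 0.08 and 4.09 ± 0.08 but had 0.12 ± 0.11 with 5ph-IAA at 30 °C (edgeR, adjusted p = 9.93e-15, 1.47e-14 and 0.356). At 39 °C GAC1 rose by 0.47 ± 0.06 with 5ph-IAA (edgeR, adjusted p = 2.66e-05). The interaction was called below 0 for 6 of the 17 and above 0 for 1, GAC1, against 22.9% and 26.0% of all genes. With library totals it was below 0 for 10 and above 0 for none, where 2550 of all 5734 genes were below and 908 above. From log2(TPM + 1) it was below 0 for 13 and above 0 for none, where 2948 of all genes were below and 685 above.

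Genes that put glucose into the pathway and those of trehalose, the other storage sugar made from UDP-glucose, also rose with heat for the most part. Of the 5 genes of glucose phosphorylation and isomerization, 4 rose and PGI1 fell with heat, both with and without 5ph-IAA. Of all genes, 38.0% and 42.5% were called higher in these 2 comparisons, and 38.3% and 39.7% lower. With 5ph-IAA against none at 30 °C, HXK1, GLK1 and EMI2 rose and 2 fell (median 0.98), where 23.6% of all genes rose and 28.1% fell. From log2(TPM + 1) all 5 rose there, as did 4865 of all 5734 genes. At 39 °C GLK1 rose and 2 fell (median −0.06), where 22.5% of all genes rose and 22.0% fell. That split became 3 and 2 with library totals (median 0.09), where 2315 of all genes rose and 709 fell. From log2(TPM + 1) it was 3 and 1 (median 0.23), where 3224 rose and 371 fell. HXK1, a hexokinase known to be repressed by glucose, was at 3920 TPM at 39 °C with 5ph-IAA, 3330 TPM at 39 °C without it, 357 TPM at 30 °C with it and 46.3 TPM at 30 °C without it, as group means. All 7 trehalose genes rose with heat with and without 5ph-IAA and with 5ph-IAA at 30 °C (medians 2.52, 3.03 and 0.75), against 38.0%, 42.5% and 23.6% of all genes called higher. At 39 °C 2 of the 7 rose with 5ph-IAA and none fell, against 22.5% of all genes called higher, while with library totals all 7 rose, as did 2315 of all 5734 genes. TSL1, a subunit of the trehalose synthase complex, rose by 5.02 ± 0.05 with heat with 5ph-IAA, by 7.22 ± 0.07 without it and by 2.50 ± 0.07 with 5ph-IAA at 30 °C (edgeR, adjusted p = 1e-16, 1.25e-17 and 2.16e-12). SGA1, a glucoamylase that breaks glycogen down during sporulation, rose with heat by 2.32 ± 0.16 with 5ph-IAA and by 2.83 ± 0.17 without it (edgeR, adjusted p = 1.19e-08 and 1.45e-09).

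Other makers and users of UDP-glucose and sugar phosphates moved in both directions. Of the 9 genes measured, 3 rose and 3 fell with heat with 5ph-IAA (median 0.01), where 38.0% of all genes rose and 38.3% fell. With library totals 3 rose and 6 fell (median −0.32), where 1409 of all 5734 genes rose and 3156 fell. With heat without 5ph-IAA 4 rose and 3 fell (median 0.42), where 42.5% of all genes rose and 39.7% fell. GAL7 and GAL10, of galactose use, rose with heat, GAL7 by 1.87 ± 0.20 with 5ph-IAA and 3.50 ± 0.22 without it (edgeR, adjusted p = 1.5e-06 and 3.39e-09) and GAL10 by 1.22 ± 0.11 and 1.64 ± 0.11 (edgeR, adjusted p = 1.85e-07 and 5.45e-09). FKS1, a subunit of the glucan synthase that spends UDP-glucose on the cell wall, fell with heat, with −0.49 ± 0.05 with 5ph-IAA and −1.53 ± 0.05 without it (edgeR, adjusted p = 2.01e-06 and 6.04e-12). GSC2, the alternative subunit, had 0.12 ± 0.07 with heat with 5ph-IAA and rose by 0.93 ± 0.07 without it (edgeR, adjusted p = 0.131 and 1.49e-08). With 5ph-IAA against none, 4 rose and 4 fell at 39 °C, where 22.5% of all genes rose and 22.0% fell. At 30 °C 2 rose and 2 fell, where 23.6% of all genes rose and 28.1% fell. That split at 30 °C became 7 and 0 with library totals, where 3962 of all genes rose and 503 fell.

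Patterns over the 4 group means were compared as the distance between centred log2(TPM + 1) values, over 5724 other genes and 8 libraries, as a description. Among the 10, the closest with this pseudocount were GSY1 and GPH1 (distance 0.19), a synthase and the phosphorylase. GLG1 and UGP1 (0.36) and GDB1 and UGP1 (0.40) followed. GSY1 was low in unheated cells without 5ph-IAA (mean 2.896 TPM), where a pseudocount weighs more. With heat without 5ph-IAA, GSY1 and GPH1 rose by 5.84 and 5.63 from log2(TPM + 1), and by 6.21 and 5.78 from log2(TPM + 0.1). GDB1 and UGP1 rose by 3.58 and 3.98, and by 3.85 and 4.0. GSY1 and GPH1 thus moved apart there, and GDB1 and UGP1 moved closer. Whether the order of close pairs holds with another pseudocount was not tested. The distances of the paralogs were 1.87 for GSY1 and GSY2, 2.61 for GLG1 and GLG2 and 6.06 for PGM1 and PGM2. Outside the 10, HXK1 was nearest to GSY1 (0.27) and to GPH1 (0.37), TSL1 to PGM2 (0.42), AGP2 to GSY2 (0.23), and YLR177W to GLC3 (0.25). NNR2 was nearest to GDB1 (0.15), YCL042W to GLG1 (0.13), USV1 to UGP1 (0.08), ALP1 to GLG2 (0.05) and MSY1 to PGM1 (0.02). A gene that changes little lies close to many others, so the distances of GLG2 and PGM1 do not compare with the rest.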

How the data were processed

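RNA was extracted with a TRI-reagent and column kit, treated with DNase and made into libraries with poly-T selection and the TruSeq RNA v2 kit, which does not mark strand, per the labels' protocols. None of the 10 genes overlaps another annotated gene. The authors' deposited tables give estimated counts and TPM per gene and library, and kallisto is the tool that the submitters' processing notes name. The sources used here give neither its version nor its index, and the build is not given in the sources used here either. Coding lengths equal those of RefSeq R64 for 6018 of the 6019 targets found there by locus tag (of 6034), so positions, sequences and motif counts are from R64. Whole-number roundings of the deposited estimated counts entered edgeR 4.0.16 in R 4.3.3 (filterByExpr, TMM, quasi-likelihood test, 1 term per group, all 8 libraries, 4 residual degrees of freedom, two-sided, Benjamini-Hochberg over the 5734 genes, threshold 0.05). The standard error of a fitted change is the log2 fold change divided by the root of the F statistic. Deposited TPM were used for levels, shares, ratios (pseudocount 1) and an alternative test in limma 3.58.1.

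The rule for the 10 genes uses symbols alone, but the list, like those of related genes, was drawn up with earlier results of these data known. Named are all 10, the 3 largest called genes of a list in a comparison, and the 3 nearest patterns of each of the 10, of which the text gives the nearest. PGI1, outside this rule, was named after its values were seen. Of 10 other symbols listed for UDP-glucose and sugar phosphates, PGM3 was not found by that symbol, and other names were not looked up. Alternatives were library totals alone, TMM without ribosomal protein genes, DESeq2 1.42.0, no filter, pseudocounts 1 and 0.1, only the groups compared, the replicate number as a block, summed paralogs and each library left out. Replicate libraries differed by more than counting noise (chi-square of 3.42 to 4.53 per degree of freedom), so none is a copy of another.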

Additional observations from a re-analysis of the deposited data

Results flagged for a closer look

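For 8 of the 10 genes the heat change with 5ph-IAA differed from the heat change without it in the interaction test of edgeR, and all 8 differences were below 0 on the log2 scale. They were −2.62 for GSY1, −2.01 for GPH1, −1.89 for PGM2, −1.19 for GLC3, −1.10 for GLG1, −1.05 for GDB1, −0.88 for UGP1 and −0.68 for GSY2. Over all genes tested, 22.9% were called below 0 and 26.0% above. The interaction was also below 0 for 6 of the 7 trehalose genes and above 0 for none. Among the 5 genes of glucose phosphorylation and isomerization, 3 were below 0 and 1 above. With library totals 7 trehalose genes and 4 of these 5 were below 0, where 2550 of all 5734 genes were. With 2 libraries per group no library could be checked for standing apart from its group.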

How the results depend on the processing

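Counts of called glycogen genes stayed within 1.5 times their main value under all 84 alternatives, 749 of 790 log2 fold changes kept their direction and call, and leaving out each library gave 9 called genes for each heat comparison, 5 to 6 at 39 °C and 8 at 30 °C for 5ph-IAA against none, and 8 for the interaction. With 8 or 9 of 10 genes called, a count cannot rise past the bound of 1.5 times, and that bound ignores direction. For 5ph-IAA at 39 °C, 5 genes rose and 1 fell in the main scaling, but 8 rose with library totals. Summed paralogs leave 7 rows, so their counts are out of another total. The scaling mattered most at 30 °C: the 2965 genes called there became 4465 with library totals alone, 5141 on the log2(TPM + 1) scale and 5134 on the log2(TPM + 0.1) scale. The share of calls that were higher was 45.6% there in the main scaling, 88.7% with library totals and 94.6% from TPM + 1. For 5ph-IAA at 39 °C it was 50.6%, 76.6% and 89.7%, for heat with 5ph-IAA 49.8%, 30.9% and 35.7%, and for the interaction 53.1%, 26.3% and 18.9%. Values that turned sign were small in the main scaling. PGM1 had 0.05 with heat without 5ph-IAA (0.0492 and 0.0497 with pseudocounts 1 and 0.1), and for 5ph-IAA at 30 °C 0.358 with totals, 0.6029 and 0.6075. Its interaction was −0.2098 with totals, −0.3119 and −0.3141, and for 5ph-IAA at 39 °C it had −0.0029 without ribosomal protein genes in the scaling. UGP1 at 39 °C had 0.0831 with totals, 0.2303 and 0.2304, GDB1 had 0.0029, 0.1487 and 0.1509, and the interaction of GLG2 was −0.0823 and −0.1019 from TPM. Leaving out each library, PGM1 ranged from −0.1191 to 0.0375 with heat with 5ph-IAA, from −0.0779 to 0.0825 for 5ph-IAA at 39 °C and from −0.0385 to 0.1147 in the interaction. The PGM1 to PGM2 ratio ranged from −0.0888 to 0.0336 for 5ph-IAA at 39 °C. The cause was not tested beyond the median of all genes given in the report. Deviations by replicate number correlated at 0.25 between the 2 groups with 5ph-IAA, over 5516 genes. The other pairs of groups lay between −0.04 and 0.07. The groups with 5ph-IAA thus shared a part of their deviations by number, and its source was not tested. With the replicate number as a block 1356 genes were called higher and 1627 lower for 5ph-IAA at 30 °C, and no count of called glycogen genes changed. Having 2 libraries per group and relative values limits all results.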
